A study of Mus musculus with 8 samples.

Results

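The genes described here are 10 that act on the Wnt ligand on its way out of the sending cell or at the surface of the receiving cell. Porcn and Wls serve ligand secretion, Lrp5 and Lrp6 encode the coreceptors, and Kremen1 and Kremen2 regulate the coreceptors. Gpc3 and Gpc4 encode heparan sulfate core proteins, and Sulf1 and Sulf2 encode heparan sulfate sulfatases. They were taken by gene symbol from a table of 42775 genes, in which all 10 were found, and the rule uses no measured value. The transcriptomes come from cochlear explants of wild-type Swiss Webster mice, which were taken on embryonic day (E) 12.5 and cultured for 1 day. Control explants were then kept for 6 h in vehicle, DMSO, and the others in 10 μM CHIR99021, and the labels name the source of both groups as E14.0 cultures. There were 4 libraries in each group, with numbers 1 to 4. Libraries 1 and 3 are labelled female, 2 and 4 male. How many cochleas a library holds is not given in the sources used here.

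Wnt ligands are lipidated by Porcupine (Porcn), carried to the cell surface by Wntless (Wls) and bound on the receiving cell by Frizzled together with LRP5 or LRP6. Kremen proteins bind Dickkopf (DKK) and take the coreceptors off the surface. The heparan sulfate chains of glypicans hold or present the ligand, depending on sulfate groups that the extracellular enzymes SULF1 and SULF2 remove. CHIR99021 inhibits GSK3 and so stabilizes β-catenin inside the cell, downstream of all of these proteins. In the cochlea, Wnt signaling takes part in proliferation and in the patterning of the medial side of the duct.

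For 5 of the 10 genes RefSeq (GRCm38.p6) gave a promoter, in 6 windows. The 250 bases before each RefSeq start were searched for the TCF/LEF letters CTTTG followed by A or T and then again by A or T, on both strands. Of the 6 windows 0 held them, where 14.8% of the 32851 windows of all genes did. The stretches of Gpc3, a gene called lower, and of Wls, a gene that was not called, are shown 5′ to 3′ on the strand of each gene as the search read them, without capitals because there was no match. The Gpc3 stretch is chrX:52613975-52614224 on the minus strand, with 71.6% G and C. The Wls stretch is chr3:159839400-159839649 on the plus strand, with 58.0% G and C.
Gpc3: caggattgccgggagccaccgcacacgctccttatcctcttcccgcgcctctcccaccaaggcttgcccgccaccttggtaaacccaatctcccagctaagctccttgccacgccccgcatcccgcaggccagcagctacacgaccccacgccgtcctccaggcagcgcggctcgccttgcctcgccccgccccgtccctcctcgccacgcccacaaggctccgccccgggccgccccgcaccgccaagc
Wls: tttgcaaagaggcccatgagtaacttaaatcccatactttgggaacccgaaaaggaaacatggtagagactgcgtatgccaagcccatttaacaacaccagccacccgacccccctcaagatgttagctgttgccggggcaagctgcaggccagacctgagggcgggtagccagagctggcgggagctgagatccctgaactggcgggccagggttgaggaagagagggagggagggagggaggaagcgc
The other genes with a window were Gpc4, Kremen2 and Sulf2. Against the GENCODE genes, the Gpc4 window and 1 of the 2 Sulf2 windows lie wholly inside the gene, and 4 bases of the Kremen2 window do, so these are not all sequence before the gene. The result concerns these letters in these windows only.

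Expression was read as counts per 1000000 assigned reads (CPM). The libraries held 64905007 to 89269187 assigned reads, and 1 read was worth 0.0112 to 0.0154 CPM. Fold changes are differences of mean log2(CPM + 1), CHIR99021 minus control, fitted with limma over the 14264 genes whose CPM averaged at least 1, and they understate changes of genes at low CPM. A gene was called at a Benjamini-Hochberg adjusted p under 0.05 over all genes tested. In the RNA of a whole explant, fewer cells of a type and less RNA per cell cannot be told apart. Replicates 1 and 4 stood apart from replicates 2 and 3 in both groups, with reads on 22838 to 24249 genes against 20301 to 20698, so each response was also fitted within each of these sides. The Wnt readout Axin2 had 78.4 to 101 CPM in the control and 239 to 288 CPM in the CHIR99021 libraries, a log2 fold change of 1.59 (adjusted p = 8.32e-07 from limma).

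Of the 10 genes, Kremen1 rose and Sulf1, Gpc4 and Gpc3 fell in CHIR99021. Of the 9 genes tested, 1 was called higher, where 12.3% of all genes tested were, and 3 were called lower, where 21.4% of all genes tested were. Under TMM scaling, another estimate of library size, the calls over all genes were split into 2446 higher and 2330 lower, against 1753 higher and 3052 lower here. With that scaling 2 of the 9 genes were called lower, where 16.3% of all genes were. Gpc3 then did not pass (adjusted p = 0.0991 from limma). Porcn, Wls, Lrp5, Lrp6 and Sulf2 did not pass, and Kremen2 lay below the minimum. Without overlap between the groups, CHIR99021 lay above control for Kremen1 (12.7% of all genes) and below it for Sulf1 and Gpc4 (20.6% of all genes). The median log2 fold change of the 9 genes was -0.083, against -0.047 over all genes tested. Kremen1 had a higher fold change than 98.9% of the genes tested, Gpc4 than 6.22% and Sulf1 than 1.23%.

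**Figure D1:**
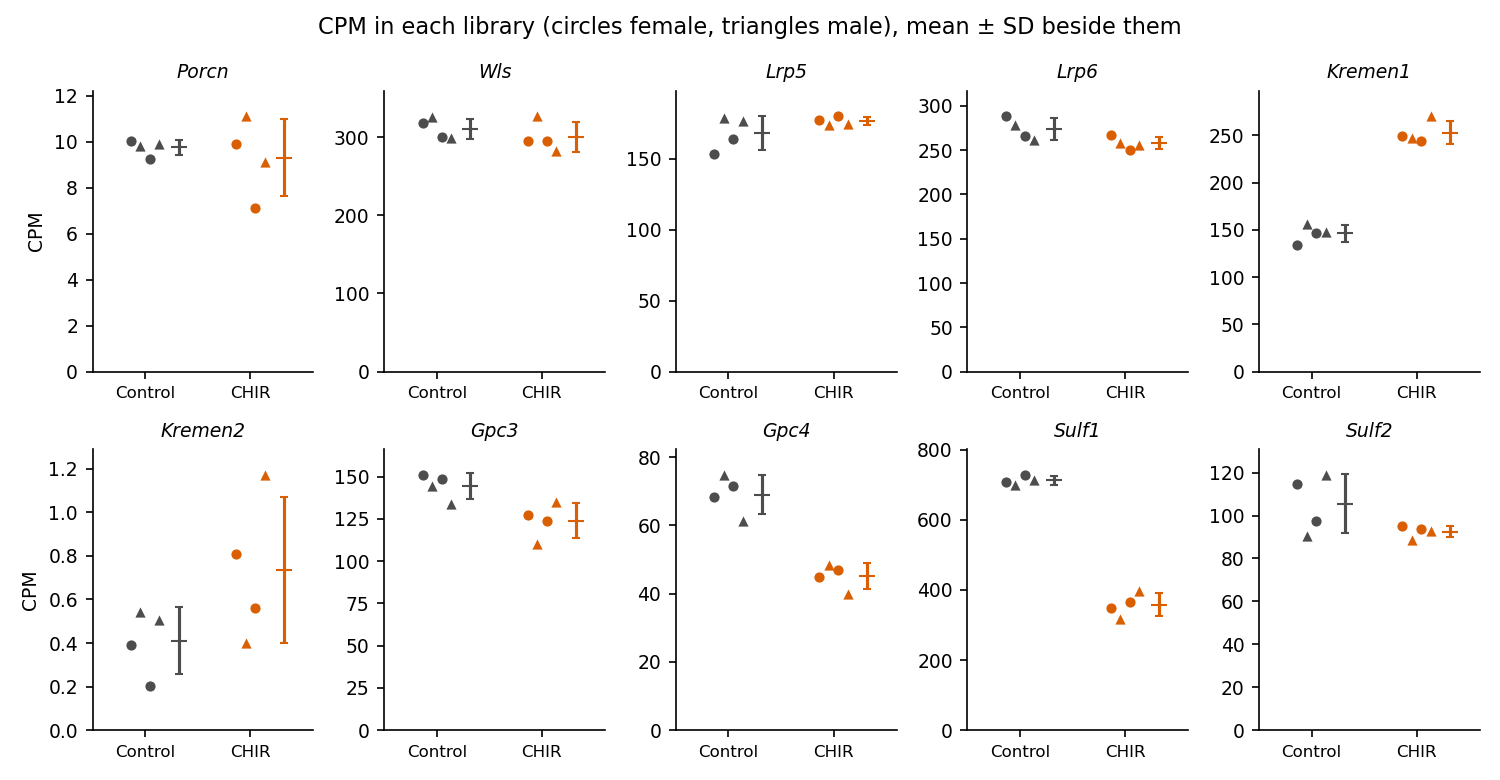
CPM (vertical axis, from 0) of each of the 10 genes in the 4 control (grey) and 4 CHIR99021 (orange) libraries, with circles for female and triangles for male libraries and the mean ± SD (n = 4) beside them. The groups part without overlap for Kremen1 (134 to 156 against 244 to 271 CPM), Gpc4 (61.4 to 74.9 against 39.9 to 48.5 CPM) and Sulf1 (698 to 729 against 318 to 398 CPM).

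The genes of ligand secretion did not pass the test. Porcn, the acyltransferase that lipidates Wnt (chromosome X, 8193848 to 8206525, GRCm38, ENSMUSG00000031169), had 10.0, 9.79, 9.25 and 9.92 CPM in control libraries 1 to 4 and 9.88, 11.1, 7.11 and 9.10 CPM in CHIR99021 libraries 1 to 4. The CHIR99021 group held both the highest of the 8 values, in library 2, and the lowest, in library 3. The means were 9.74 ± 0.346 CPM in control and 9.30 ± 1.68 CPM in CHIR99021 (SD, n = 4 each), and the log2 fold change was -0.08 with a 95% interval of -0.34 to 0.19 (adjusted p = 0.672 from limma). Without CHIR99021 replicate 3 the value was 0.034.

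Wls, the carrier of the lipidated ligand (chromosome 3, 159839672 to 159938664, ENSMUSG00000028173), had 318, 325, 300 and 299 CPM in the control libraries and 295, 327, 295 and 282 CPM in the CHIR99021 libraries. The groups overlapped over most of their range. Limma gave a log2 fold change of -0.05 (95% interval -0.18 to 0.08, adjusted p = 0.547), and under TMM scaling its sign turned (0.011).

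Of 12 listed genes of the secretion route (TMED cargo receptors, retromer subunits and other vesicle factors), 2 rose and 10 did not pass, with a median log2 fold change of 0.122. In the main test the share that rose was 16.7%, near the 12.3% of all genes tested, and 0 fell, where 21.4% of all genes did. Both genes that rose encode cargo receptors of early secretion, Tmed10 with 209 to 236 CPM in control and 241 to 271 CPM in CHIR99021 and Tmed5 with 31.9 to 41.0 and 43.3 to 47.0 CPM. Their log2 fold changes were 0.21 and 0.27 (limma adjusted p = 0.0234 and 0.0247). The call of Tmed10 was lost without Control replicates 1 or 4 or CHIR99021 replicates 2 or 3 (adjusted p 0.0551, 0.0576, 0.0555 and 0.0694 from limma), and that of Tmed5 without Control replicate 2 or CHIR99021 replicates 2, 3 or 4 (0.0565, 0.0542, 0.0580 and 0.0542 from the same test). Snx3, a sorting nexin needed for Wls recycling in worms and flies, had a log2 fold change of 0.24 that did not pass (adjusted p = 0.0623 from limma). It passed under TMM and median-ratio scaling (adjusted p = 0.0250 and 0.0243 from limma), on the recovered reads (0.0332 from edgeR, 0.00691 from DESeq2), with the replicate number as a block (0.00607 from limma), without Control replicate 3 (0.0297) and without CHIR99021 replicate 1 (0.0498). The number of route genes that rose was 4 with the replicate block (15.4% of all genes rose there), 5 with TMM scaling (17.1%), 6 with median-ratio scaling (17.9%), 3 with edgeR (12.8%) and 5 with DESeq2 (15.5%).

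The coreceptor genes did not pass either. Lrp5 (chromosome 19, 3584828 to 3686564, ENSMUSG00000024913) had 153, 179, 164 and 176 CPM in control libraries 1 to 4 and 177, 174, 180 and 174 CPM in CHIR99021 libraries 1 to 4. The CHIR99021 values lay close together, within the upper part of the control range or just above it. Limma gave a log2 fold change of 0.07 (95% interval -0.05 to 0.20, adjusted p = 0.363). The numbered pairs differed in sign, with 0.21 and 0.14 for numbers 1 and 3 and -0.04 and -0.02 for numbers 2 and 4.

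Lrp6 (chromosome 6, 134446476 to 134566965, ENSMUSG00000030201) had 288, 278, 266 and 261 CPM in the control and 267, 258, 250 and 256 CPM in the CHIR99021 libraries. CHIR99021 was lower in 4 of 4 numbered pairs, at -0.11 to -0.03 on the log2 scale, while the groups overlapped. Limma gave a log2 fold change of -0.08 (95% interval -0.20 to 0.03, adjusted p = 0.240). Under TMM scaling it was -0.021 (adjusted p = 0.782 from limma).

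Of 11 listed genes for LRP maturation and phosphorylation, 10 were tested, and Mesd was not found by symbol, so nothing is said of it here. Among the 10 tested genes, 2 rose, 1 fell and 7 did not pass, with a median log2 fold change of 0.033. Of all genes 12.3% rose and 21.4% fell, so these counts are near the background. Lypd6, whose product binds LRP6 and promotes its phosphorylation in zebrafish, rose, with 86.7 ± 3.35 CPM in control and 119 ± 9.08 CPM in CHIR99021 (SD, n = 4 each) and a log2 difference of 0.45 (limma adjusted p = 0.000334). Its relative Lypd6b rose, with 14.6 ± 1.36 and 23.6 ± 0.490 CPM and a log2 difference of 0.66 (limma adjusted p = 0.000149). Cdk14, a kinase that primes LRP6 with cyclin Y, fell, with 81.0 ± 5.01 and 66.0 ± 3.37 CPM and a log2 difference of -0.29 (limma adjusted p = 0.00489). Its call was lost within replicates 1 and 4 (adjusted p = 0.0618 from limma) and within replicates 2 and 3 (0.0548). With the replicate block 2 of the 10 were lower, the other being Caprin2, named after its values were seen (-0.27, adjusted p = 0.0374 from limma).

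Kremen1, a DKK receptor that removes LRP6 from the membrane (chromosome 11, 5191552 to 5261558, ENSMUSG00000020393), rose the most of the 9 genes. It had 134, 156, 147 and 148 CPM in control libraries 1 to 4 and 249, 247, 244 and 271 CPM in CHIR99021 libraries 1 to 4. The lowest CHIR99021 library lay well above the highest control. The means were 146 ± 9.03 and 253 ± 12.1 CPM (SD, n = 4 each), so that the ratio of the means was 1.73. Limma put the response at 0.78 ± 0.059 (log2 fold change ± standard error, adjusted p = 7.22e-06), with 0.89, 0.66, 0.73 and 0.86 in pairs 1 to 4. It was 0.74 to 0.82 when any 1 library was left out.

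Kremen2, the other gene of this family (chromosome 17, 23741197 to 23745833, ENSMUSG00000040680), was at a low level. It had 0.392, 0.541, 0.204 and 0.507 CPM in the control and 0.809, 0.401, 0.558 and 1.17 CPM in the CHIR99021 libraries, from 17 to 41 and from 26 to 78 reads. The groups overlapped. Its mean over the 8 libraries, 0.573 CPM, kept it out of the test. With no filter on low values its log2 fold change was 0.28 (adjusted p = 0.256 from limma), and on the recovered reads 0.91 (adjusted p = 0.174 from edgeR's quasi-likelihood test). An antisense gene, 9530082P21Rik, shares 9.42% of its exon bases, and the sources used here do not state whether the counting used strand.

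Of 6 tested genes listed as antagonists of LRP5 and LRP6, 3 rose and 3 did not pass, with a median log2 fold change of 0.43. Of all genes 12.3% rose, and the list is short. Apcdd1, a membrane inhibitor that binds Wnt and LRP5, rose, with 63.0 to 85.6 CPM in control and 168 to 236 CPM in CHIR99021 and a log2 difference of 1.42 (limma adjusted p = 2.47e-05). Dkk2, a secreted ligand of LRP6 and Kremen, rose, with 8.13 ± 1.46 and 20.1 ± 3.09 CPM and a log2 difference of 1.21 (limma adjusted p = 9.85e-05). Lrp4, a receptor that binds sclerostin, rose, with 88.9 ± 6.03 and 140 ± 11.6 CPM and a log2 difference of 0.65 (limma adjusted p = 8.09e-05). Dkk1 (0.21), Dkk3 (-0.27) and Sostdc1 (-0.39) did not pass (adjusted p = 0.335, 0.133 and 0.125 from limma). Dkk4 and Sost lay below the minimum. Sost, the sclerostin gene, named after its values were seen, had 0.309 to 2.69 CPM in control and 0.0977 to 0.464 CPM in CHIR99021, with overlap, and on the recovered reads it was called lower (-2.13, adjusted p = 0.0310 from edgeR and 0.00281 from DESeq2), while limma with no filter did not call it (-0.75, adjusted p = 0.135). In the same libraries 7 of 7 listed feedback genes rose, among them Nkd1 (log2 fold change 2.24), Axin2 (1.59) and Znrf3 (1.19). These were known as Wnt targets when the list was made.

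**Figure D2:**
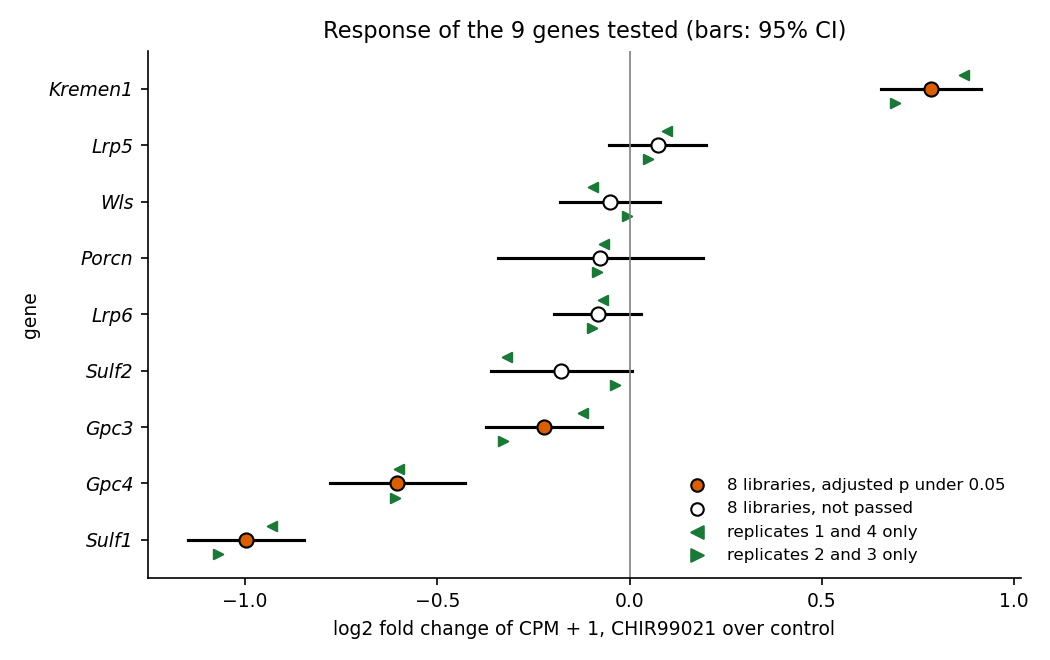
Log2 fold change of CPM + 1, CHIR99021 over control (horizontal axis), of the 9 genes tested, with 95% intervals from limma over 8 libraries and triangles for the fits within replicates 1 and 4 and within replicates 2 and 3. Kremen1 lies at 0.78 and Sulf1 at -1.0, and the sides part most for Sulf2 (-0.32 and -0.04) and Gpc3 (-0.12 and -0.33).

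Both glypican genes of this set, which lie 107.2 kb apart on chromosome X, were lower in CHIR99021, Gpc4 by more. Gpc4 (52053021 to 52165252, ENSMUSG00000031119) encodes a membrane-anchored heparan sulfate core protein. It had 68.3, 74.9, 71.6 and 61.4 CPM in control libraries 1 to 4 and 44.9, 48.5, 47.0 and 39.9 CPM in CHIR99021 libraries 1 to 4. No CHIR99021 library reached the lowest control. The means were 69.0 ± 5.78 and 45.1 ± 3.77 CPM (SD, n = 4 each), with a ratio of the means of 0.653. Limma put the response at -0.60 ± 0.079 (log2 fold change ± standard error, adjusted p = 0.000248), and the pairs agreed closely, at -0.59, -0.62, -0.60 and -0.61.

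Gpc3, a glypican that restrains growth of the mouse embryo (52272426 to 52613950, ENSMUSG00000055653), had 151, 144, 149 and 134 CPM in the control and 128, 110, 124 and 135 CPM in the CHIR99021 libraries. Library 4 of CHIR99021 lay above library 4 of the control, and the groups overlapped there only. The means were 145 ± 7.58 and 124 ± 10.4 CPM (SD, n = 4 each), and limma gave -0.22 ± 0.068 (log2 fold change ± standard error, adjusted p = 0.0278). The call was lost under TMM scaling (adjusted p = 0.0991 from limma), with no filter (0.0633 from limma), on the recovered reads (0.131 from edgeR, 0.118 from DESeq2), within replicates 1 and 4 (-0.12, adjusted p = 0.347 from limma), and without Control replicates 1, 2 or 3 (0.0675, 0.0593 and 0.0572) or CHIR99021 replicates 2 or 3 (0.0595 and 0.0604).

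Of 14 other protein-coding genes within 1 Mb of the glypican genes, 8 were tested, of which 2 were higher, 1 lower and 5 did not pass. Of all genes 12.3% were higher and 21.4% lower, and 8 genes are too few to tell whether the locus differs from these shares. The genes called at the locus are named because their counts are small, after their values were seen. Hs6st2, a heparan sulfate 6-O-sulfotransferase, rose, with 33.0 ± 2.65 CPM in control and 42.0 ± 2.96 CPM in CHIR99021 (SD, n = 4 each) and a log2 difference of 0.34 (limma adjusted p = 0.00648), and did not pass within replicates 2 and 3 (0.159). Hprt, a purine salvage enzyme, rose by 0.33 and Mospd1 fell by 0.32 on the log2 scale (limma adjusted p = 0.0200 and 0.0373). The call of Hprt was lost without CHIR99021 replicate 3 (adjusted p = 0.0588 from limma) and within replicates 2 and 3 (0.289), and that of Mospd1 under TMM scaling (0.0768) and without any 1 of 6 libraries, Control replicates 1, 2 and 3 and CHIR99021 replicates 1, 3 and 4 (0.0605 to 0.0999).

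Of 11 other heparan sulfate core protein genes tested, 1 rose, 1 fell and 9 did not pass, with a median log2 fold change of -0.038. Each direction had 9.09% of them, below the 12.3% and 21.4% of all genes. The syndecan gene Sdc1 rose, with 85.5 to 98.5 CPM in control and 129 to 144 CPM in CHIR99021, while Sdc4 fell, with 85.8 to 113 and 59.2 to 71.9 CPM. Their log2 fold changes were 0.54 and -0.55 (limma adjusted p = 9.26e-05 and 0.000869). Col18a1, the collagen that carries heparan sulfate in basement membranes, had a log2 fold change of 0.17 that did not pass (adjusted p = 0.151 from limma). It passed with the replicate block (0.0338 from limma), with DESeq2 on the recovered reads (0.0342) and without Control replicate 4 (0.0250).

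Sulf1 fell and Sulf2 did not pass. Sulf1, an extracellular 6-O-endosulfatase (chromosome 1, 12692277 to 12861192, ENSMUSG00000016918), had 709, 698, 729 and 714 CPM in control libraries 1 to 4 and 349, 318, 364 and 398 CPM in CHIR99021 libraries 1 to 4. The control libraries lay close together, and every CHIR99021 library lay far below them. The means were 713 ± 12.7 and 357 ± 33.1 CPM (SD, n = 4 each), with a ratio of the means of 0.501. Limma put the response at -1.0 ± 0.068 (log2 fold change ± standard error, adjusted p = 4.10e-06). Pairs 1 to 4 gave -1.02, -1.13, -1.0 and -0.84, and leaving out any 1 library gave -1.05 to -0.94.

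Sulf2, the other enzyme of this kind (chromosome 2, 166073089 to 166155663, ENSMUSG00000006800), had 115, 90.4, 97.3 and 119 CPM in the control and 94.9, 88.8, 93.9 and 92.6 CPM in the CHIR99021 libraries. Control libraries 1 and 4 were high, and the other control libraries lay in or near the narrow CHIR99021 range. The means were 105 ± 13.7 and 92.6 ± 2.70 CPM (SD, n = 4 each), and the log2 fold change was -0.18 with a 95% interval of -0.36 to 0.0067 (adjusted p = 0.127 from limma). It passed within replicates 1 and 4 (-0.32, adjusted p = 0.0191 from limma) and without Control replicate 2 (-0.25, adjusted p = 0.0347), and not within replicates 2 and 3 (-0.038, adjusted p = 0.795). The difference between the sides, tested after the values were seen, was -0.28 (unadjusted p = 0.0226, adjusted p = 1 from limma over all genes). Its exons share 2.62% of their bases with Ncoa3 on the other strand.

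Of 12 genes tested for the linker and chain of heparan sulfate, Ext1 rose, Ugdh fell and 10 did not pass, with a median log2 fold change of -0.066. Each direction had 8.33% of them, below the 12.3% and 21.4% of all genes. Ext1, a subunit of the heparan sulfate polymerase, rose, with 120 ± 5.42 CPM in control and 146 ± 5.30 CPM in CHIR99021 (SD, n = 4 each) and a log2 difference of 0.28 (limma adjusted p = 0.00223), and did not pass within replicates 2 and 3 (0.0515). Ugdh makes the UDP-glucuronate of the chain and had 135 ± 10.2 and 118 ± 3.53 CPM, a log2 fold change of -0.20 (adjusted p = 0.0304 from limma). That call was lost under TMM scaling (adjusted p = 0.114 from limma), and without Control replicates 1, 2 or 3 (0.0670, 0.0706 and 0.0724) or CHIR99021 replicates 1 or 4 (0.0786 and 0.0770). B4galt7, a linker galactosyltransferase, had a log2 fold change of -0.20 (adjusted p = 0.134 from limma), and passed with the replicate block (0.0461) and without CHIR99021 replicate 2 (0.0178).

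Of 14 tested genes for sulfation and epimerization of the chain, 3 rose, 4 fell and 7 did not pass, with a median log2 fold change of -0.042. That is 21.4% higher and 28.6% lower, beside 12.3% and 21.4% of all genes. On the recovered reads 18 were tested, and Ndst4, below the minimum here, was called lower by edgeR and DESeq2 and Hs3st5 by DESeq2. Papss2, an enzyme that makes the sulfate donor PAPS, fell, with 29.6 ± 3.18 CPM in control and 9.43 ± 1.75 CPM in CHIR99021 (SD, n = 4 each) and a log2 difference of -1.56 (limma adjusted p = 1.06e-05), further than Sulf1 on this scale. Hs3st1, a 3-O-sulfotransferase, fell, with 35.6 ± 5.26 and 21.1 ± 2.02 CPM and a log2 difference of -0.72 (limma adjusted p = 0.000597). Ndst3, an N-deacetylase and N-sulfotransferase, fell, with 7.70 ± 0.705 and 3.89 ± 0.873 CPM and a log2 difference of -0.84 (limma adjusted p = 0.000892). The fourth that fell was Hs3st3b1 (-0.21, adjusted p = 0.0493 from limma), whose call was lost under TMM scaling (0.140), with edgeR (0.187) and without any 1 library other than Control replicate 1 or CHIR99021 replicate 4 (0.0556 to 0.136). Beside Hs6st2 the genes that rose were Hs3st6 (0.72), also a 3-O-sulfotransferase, and the epimerase gene Glce (0.22). Glce did not pass within replicates 1 and 4 (adjusted p = 0.172 from limma) or within replicates 2 and 3 (0.0654). Hs3st3b1, Hs3st6, Glce, Ndst4 and Hs3st5 were named after their values were seen.

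**Figure D3:**
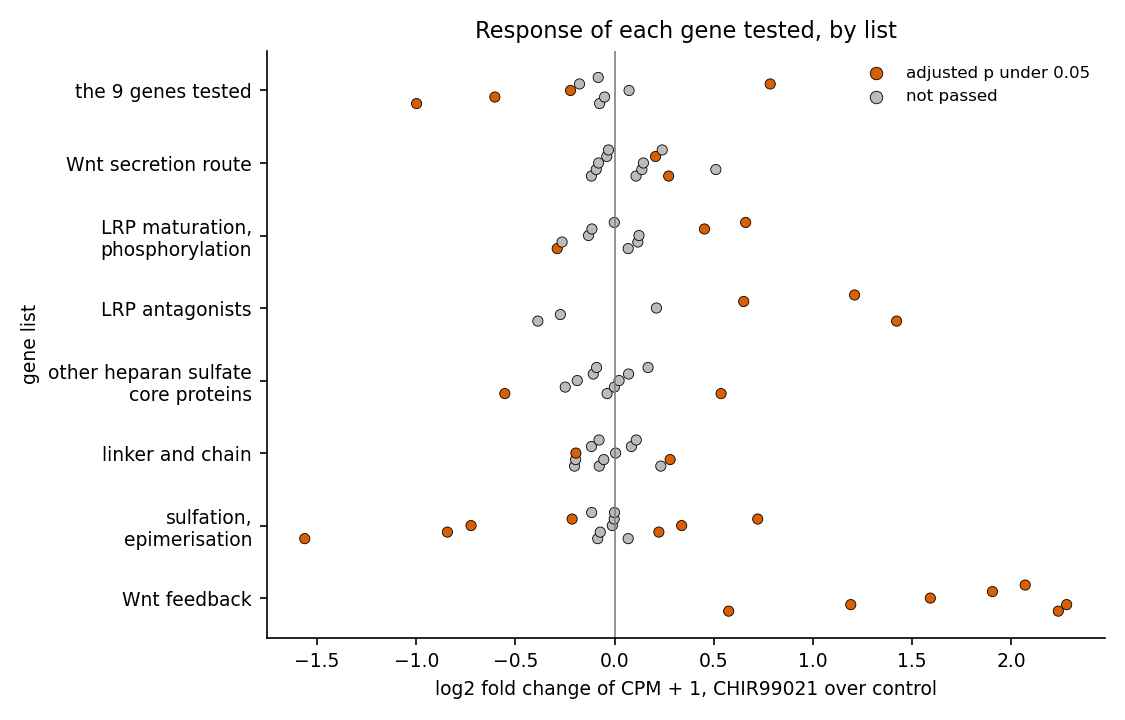
Log2 fold change of CPM + 1, CHIR99021 over control (horizontal axis), of each gene tested, by list (vertical axis), with orange for an adjusted p under 0.05 from limma and grey for genes that did not pass. The 7 feedback genes lie above 0 and the other lists hold genes on both sides, with Papss2 lowest at -1.56.

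Per kb of exon, the order of the 10 genes differed between the groups. The length taken was that of all annotated exons of a gene together, not of the transcripts present. The order between genes depends on this choice, which the SD does not cover. In control, Sulf1 had the highest level, 63.1 ± 1.12 CPM per kb (SD, n = 4), before Gpc3 with 53.8 ± 2.82, Wls with 35.3 ± 1.52 and Gpc4 with 26.0 ± 2.18 CPM per kb. The ranges of neighbours among these did not overlap. Lrp6 (19.1 to 21.1), Kremen1 (17.4 to 20.2), Sulf2 (15.4 to 20.3) and Lrp5 (15.8 to 18.4) followed at overlapping CPM per kb, and Porcn (3.25 ± 0.115) and Kremen2 (0.194 ± 0.0716) were lowest.

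In CHIR99021, Gpc3 was highest at 46.1 ± 3.85 CPM per kb (SD, n = 4). Wls (34.1 ± 2.17), Kremen1 (32.7 ± 1.56) and Sulf1 (31.6 ± 2.93) followed with overlapping ranges. Lrp6 (18.9 ± 0.521), Lrp5 (18.1 ± 0.297), Gpc4 (17.0 ± 1.42) and Sulf2 (15.8 ± 0.460) came next, each overlapping its neighbour in CPM per kb, before Porcn (3.10 ± 0.560) and Kremen2 (0.346 ± 0.159).

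**Figure D4:**
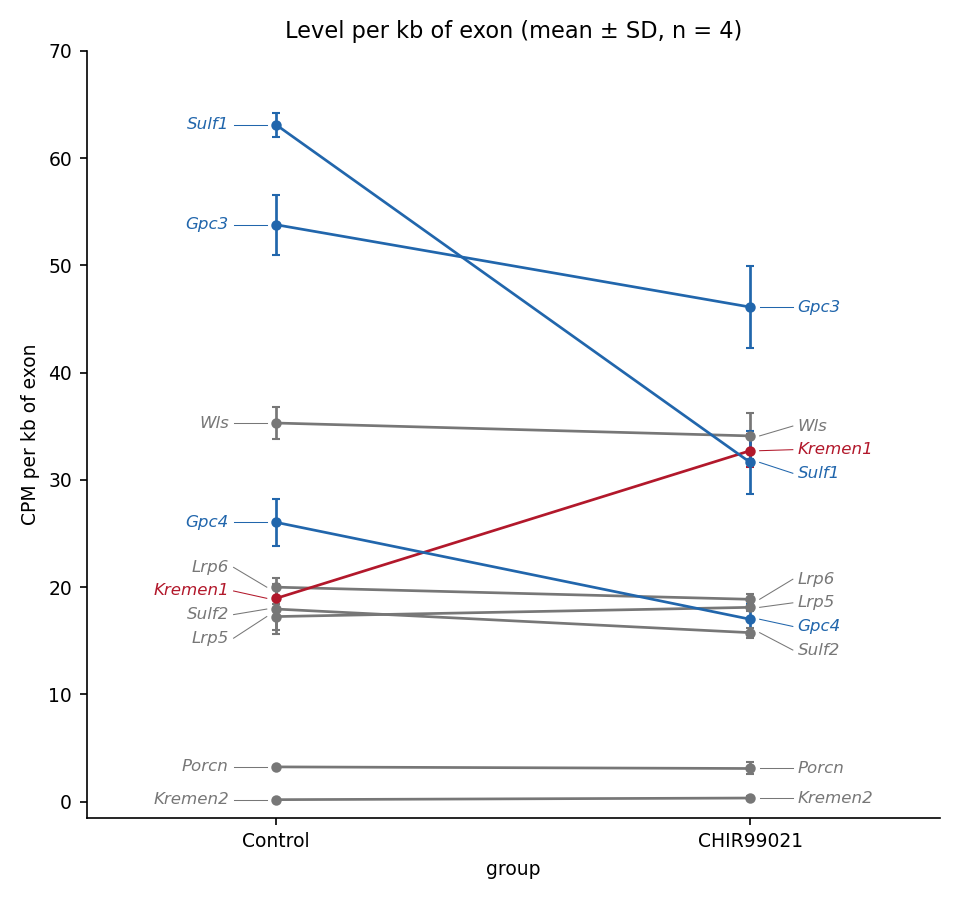
Mean CPM per kb of exon (vertical axis) of the 10 genes in control and CHIR99021, with bars for the SD (n = 4), red for the gene called higher and blue for those called lower. Sulf1 goes from 63.1 to 31.6 and Kremen1 from 19.0 to 32.7 CPM per kb, so that both end beside Wls (34.1).

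Within a library the ratio of related genes does not depend on the library's total. Of 5 pairs compared, the exact two-sided permutation test gave its smallest possible p, 0.0286, for Sulf1 to Sulf2 and for Gpc3 to Gpc4 (0.0714 for both after Benjamini-Hochberg adjustment over the 5 pairs). The log2 ratio of Sulf1 to Sulf2 was 2.77 ± 0.187 in control and 1.95 ± 0.116 in CHIR99021 (SD, n = 4 each), lower in 4 of 4 CHIR99021 libraries than in any control. That of Gpc3 to Gpc4 was 1.07 ± 0.0906 and 1.46 ± 0.239, higher in 4 of 4 CHIR99021 libraries. Lrp5 to Lrp6 moved from -0.70 ± 0.148 to -0.55 ± 0.0521 (exact permutation p = 0.0857, adjusted 0.143, n = 4 each) with overlap. Kremen1 to Kremen2 (8.57 ± 0.623 and 8.54 ± 0.615) and Porcn to Wls (-4.99 ± 0.0604 and -5.03 ± 0.235) overlapped widely, the first resting on few Kremen2 reads.

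**Figure D5:**
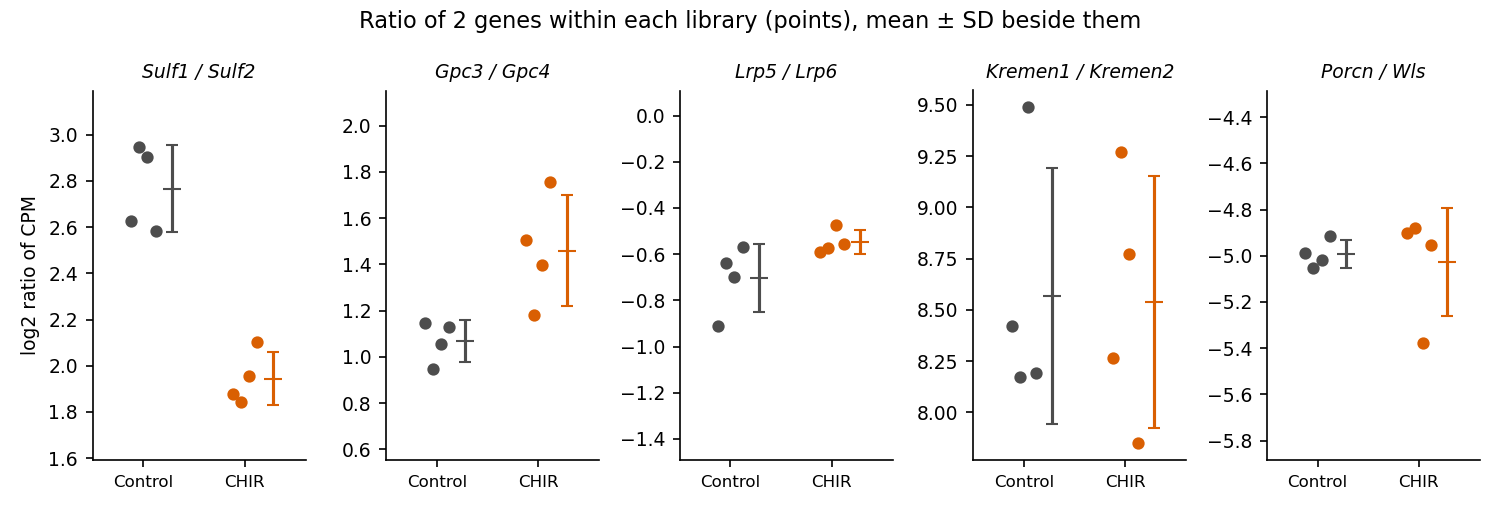
Log2 ratio of the CPM of 2 related genes in each library (vertical axes, scaled per pair) for control (grey) and CHIR99021 (orange), with the mean ± SD (n = 4) beside the points. The groups part for Sulf1 over Sulf2 (2.77 and 1.95) and Gpc3 over Gpc4 (1.07 and 1.46) and overlap for the other 3 pairs.

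The sexes were compared because Porcn, Gpc3 and Gpc4 lie on chromosome X. Of the 9 genes, limma called 0 between male and female libraries with treatment as a covariate, where 0.0981% of all genes were called, and 0 had an unadjusted p under 0.05. EdgeR and DESeq2 on the recovered reads called 0 of 10. Of 18634 genes, edgeR called 6 higher and 7 lower in males, and DESeq2 called 19 higher and 25 lower. Male minus female log2 differences were 0.13 for Porcn (95% interval -0.13 to 0.40), -0.08 for Gpc3 (-0.23 to 0.08) and -0.05 for Gpc4 (-0.24 to 0.13). These intervals take the 8 libraries as independent, though libraries of the same number deviated together, so they may be too narrow. A limma fit on the means per replicate number also called 0 of these genes, where 5 of 14264 genes were higher and 2 lower in males. The interaction of sex and treatment was called for 0 of the 9 genes by limma, where 0.0% of all genes were called, with 0 at an unadjusted p under 0.05. It was called for 0 of 10 by edgeR and by DESeq2. Of 19329 genes, edgeR called it for 0, and DESeq2 for 2 with a higher and 1 with a lower response in males.

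The genes whose centred profile over the 8 libraries was most like that of Kremen1 were Tnfrsf19, Scrn1 and Lef1, with root mean square differences of 0.0591, 0.0624 and 0.0671 on the log2 scale. Tnfrsf19 had 136 and 247 CPM in control and CHIR99021, and Lef1, a transcription factor gene of the pathway, had 102 and 180 CPM. Most like Sulf1 were Tgfbi, Tshz2 and Elmo3, with differences of 0.0877, 0.0947 and 0.0968. Tgfbi, a matrix protein gene, had 512 and 282 CPM.

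Markers of cell types in the explant were read in the same libraries, and their counts in the main test stand beside 12.3% higher and 21.4% lower among all genes. Counts from other fits stand beside other shares. Of all genes, 16.3% were lower with TMM scaling, 15.9% with median-ratio scaling, 12.6% with edgeR, 14.7% with DESeq2 and 26.1% with the replicate block. Cochlear epithelium markers summed to 1220 to 1404 CPM in control and 1450 to 1495 CPM in CHIR99021 (2 of 10 tested higher, 3 lower), and mesenchyme markers to 1838 to 1933 and 1729 to 1825 CPM (2 of 10 higher, 3 lower). Cartilage markers summed to 5732 to 7463 and 4719 to 5430 CPM, with 4 of 8 tested lower (7 with the replicate block, 3 of 9 with edgeR). That sum and these counts leave out the listed marker Cnmd, which stands in the data under its older symbol, Lect1. Lect1, named after its value was seen, fell (-1.39, adjusted p = 8.86e-07 from limma). Glia markers summed to 684.7 to 750.7 and 498.9 to 533.9 CPM, with 5 of 7 lower (3 with either scaling, edgeR or DESeq2, and 6 with the replicate block), and neuron markers to 129.6 to 168 and 93.6 to 123 CPM, with 2 of 9 lower (4 with the replicate block). Endothelium (1 of 7 lower), macrophage (2 of 4 lower, 1 with either scaling or edgeR), melanocyte (1 of 3 lower, 0 with either scaling, edgeR or DESeq2, 2 with the replicate block) and muscle (0 of 1 called by limma) markers summed to at most 125 CPM in any library. The lower calls of epithelium, mesenchyme, neuron (22.2%) and endothelium (14.3%) markers were near the share of all genes. No marker found in the table was at 0 in all libraries. Cnmd and the macrophage marker Adgre1 were not found by symbol and are in no sum or count. The part of these cell types in the lower Sulf1, Gpc4, Gpc3 and Papss2 values and in the higher Kremen1 values was not tested.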

How the data were processed

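Polyadenylated, strand-specific libraries of 75 bp paired-end fragments were made from 4 control and 4 CHIR99021-treated cochlear cultures. Per the labels HISAT2 and the build GRCm38 were used, and the authors deposited CPM per gene and library, scaled to the reads they assigned. The counter and the version of HISAT2 are not given in the sources used here. The authors' own fold changes, p-values and false discovery rates stand in the same table and were not used. Groups, numbers and sex came from the labels, which call the libraries biological replicates.

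The genes, lists and tests were chosen with earlier results of these data known. CPM values were whole multiples of 1 read for 100% of values within 0.01 read. The main test was limma 3.58.1 (R 4.3.3) with a trend on log2(CPM + 1) over the 14264 genes whose CPM averaged at least 1. It used Benjamini-Hochberg adjustment and was checked on simulated data. The simulated libraries were independent and few of their genes were changed. That check therefore does not bear on the choice of scaling or on libraries that deviate together. Sex was fitted with treatment as a covariate, and the interaction of both. On the recovered reads edgeR 4.0.16 called 4600 genes and DESeq2 1.42.0 called 5471, against 4805 here. Ratios of genes within libraries were tested with exact permutation tests (scipy 1.17.1). Exon lengths and positions came from GENCODE M21, which held 99.5% of the gene identifiers, and promoters from RefSeq.

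All 10 genes were named, with the 3 genes of smallest p in each pathway list and, for the members with the highest and lowest fold change, the 3 genes of most similar profile. The labels state no pairing, but control and CHIR99021 libraries of the same number deviated together from their group means. The r across genes was 0.514, 0.247, 0.352 and 0.337 for numbers 1 to 4, above the highest with another number in each case. Differences were therefore also given by numbered pair, and a fit with the number as a replicate block was an alternative. The main test and the exact permutation tests of ratios did not use the pairing. With the block 5908 genes were called, against 4805 in the main test. Other alternatives were TMM and median-ratio scaling, the pseudocount, the filter on low values, leaving out each library, and fits within replicates 1 and 4 and within replicates 2 and 3. For sex, the means of the libraries of each number were also fitted. The test of a difference between these sides was added after the data were seen. Counting error adds to the spread between libraries, and by more for genes at low CPM. The p-values measure the spread between these 8 libraries, counting error included.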

Additional observations from a re-analysis of the deposited data

Results flagged for a closer look

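In CHIR99021, 1 library lay far from the other 3 in the log2 ratio of Porcn to Wls, at -5.38 against -4.96 to -4.88. Its Porcn value, 7.11 CPM in library 3, was the lowest of the 8 and its Wls value, 295 CPM, was not. Of 30 groups of 4 libraries this was the only one whose gap passed Dixon's limit, which chance alone passes in about 1 group of 20.

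The paired differences of Lrp5 had opposite signs in the sexes, though those of the male pairs were small. The female pairs gave 0.21 and 0.14 on the log2 scale and the male pairs -0.04 and -0.02, a male minus female difference of -0.20. The interaction of sex and treatment did not pass for Lrp5 (unadjusted p = 0.0841, adjusted p = 1.00 from limma).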

How the results depend on the processing

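Kremen1, Sulf1 and Gpc4 kept their direction and their call under each scaling, pseudocount, filter, tool, left-out library and side. The call of Gpc3 did not hold, as given beside it. Over all genes, 1753 were higher and 3052 lower, against 2811 higher with DESeq2, 1154 higher within replicates 1 and 4, and 611 higher and 1057 lower within replicates 2 and 3. Calls that were higher made up 36.5% here, 51.2% with TMM scaling, 52.9% with median-ratio scaling, 50.5% with edgeR and 51.4% with DESeq2. Scaling moved the median of all genes from -0.047 to 0.011 (TMM) or 0.017 (median-ratio). The log2 fold change of Wls turned to 0.011 (TMM), 0.017 (median-ratio), 0.015 (edgeR) and 0.019 (DESeq2). TMM factors were 1.012 to 1.030 in the control libraries and 0.974 to 0.985 in the CHIR99021 libraries. Dividing by them moved the fold changes of all genes upward, that of Wls among them. Why the factors differ between the groups was not tested. Porcn gave -0.16 to 0.034 over the left-out libraries. Lists differed by tool, with 2 secretion route genes higher here, 5 with DESeq2 and 3 with edgeR, 2 linker and chain genes higher with DESeq2 against 1, and 3 glia markers lower with edgeR, DESeq2 and both scalings against 5. The shares over all genes differed too. Higher were 12.3% here, 12.8% with edgeR and 15.5% with DESeq2, and lower were 21.4% here and 12.6% to 16.3% with these tools and scalings.

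With the replicate block, Sulf2 came to an adjusted p of 0.0508 from limma, and among the named genes the block changed the calls of Snx3, Caprin2, Col18a1 and B4galt7 and no other. In the exact tests of ratios, 3 against 4 libraries cannot give a p under 0.0571, and pairs by number cannot give one under 0.125. The differences were 0.29 to 0.48 (Gpc3 to Gpc4) and -0.88 to -0.76 (Sulf1 to Sulf2) over the left-out libraries, and 0.39 and -0.82 with the replicate block. Kremen1 to Kremen2 was -0.03, 0.50 as a ratio of CPM + 1, and -0.27 to 0.28 over the left-out libraries. Porcn to Wls was -0.08 to 0.08. Depth limits Kremen2, which rests on 17 to 78 reads per library.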
